A study of Schizosaccharomyces pombe with 2 samples.

Results

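The genes of the small ribosomal subunit proteins of fission yeast (Schizosaccharomyces pombe) were examined for peaks of Cnd2, a subunit of condensin, in cells held in mitosis. They were taken as all protein-coding genes of chromosomes I to III whose symbol begins with rps and a digit, which gave 55 genes of 5113. All 55 are annotated as 40S ribosomal proteins, and mitochondrial ribosomal protein genes were not taken. Of the 668 peaks deposited for the series, 664 lie on the 3 chromosomes, and 25 of these had their summit inside such a gene or within 500 bp of it.

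The ChIP library was the anti-HA immunoprecipitate of strain YUK421, in which Cnd2 carries an HA tag, and it was set against the input chromatin of that strain, 1 library each. Both came from cells grown in minimal medium (EMM with glutamate), arrested by 5 µg/mL thiamine and fixed for 30 min with 0.5% formaldehyde at 25 °C. The labels do not say which gene the thiamine acts on, and both libraries carry the same arrest and tag. There was no replicate, and no untagged strain was used here, so no value has an error between samples and no test between samples was possible. After removal of duplicates 25933013 fragments were kept in the ChIP library and 54272630 in the input, and the peak caller scaled the larger library to the smaller. The caller ran with a genome size of 1.87e+09 bp, a preset for mouse (mm), which lowers the genome-wide background it allows. The background at each summit therefore came from the input around it, also where that lay below the mean coverage of 429 fragments. This mean is all kept ChIP fragments over the length of the 3 chromosomes. Fragments from elsewhere and the highest pileups, up to 79162 fragments, raise it. The median background at the summits of all peaks was 409.

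Condensin is a ring-shaped complex that folds chromosomes for mitosis, and Cnd2 is the kleisin that closes the ring. The small subunit of the cytosolic ribosome binds the mRNA and reads its codons, with the decoding centre lying between a head and a body of protein-covered 18S rRNA. Ribosomal protein genes are among the most heavily transcribed RNA polymerase II genes of growing yeast, are mostly short, and in fission yeast often exist as copies that encode nearly the same protein. Most of them share a promoter element, the HomolD box, which takes the place of a TATA box.

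Cnd2 summits were found at 24 of the 55 genes, or 43.6% (exact Clopper-Pearson 95% interval 30.3 to 57.7), and 24 of the 26 pairs of gene and summit placed the summit nearer to the gene's 3′ end. The same call was made for 15.1% of all protein-coding genes, the 55 included. Small subunit genes are short, with none over 1270 bp, and among all protein-coding genes up to that length 12.7% were called. Measured from the 3′ end alone, the limit of 500 bp kept all 24 genes (43.6%), against 11.6% of all protein-coding genes. For the 5′ end the count was 5 of 55 (9.09%, 3.02 to 20.0), against 2.74%. In 3 of those 5 (rps1202, rps2802 and rps3002) the same summit lay within 500 bp of both ends. The intervals cover counting error only, and no gene list was tested against another.

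**Figure D1:**
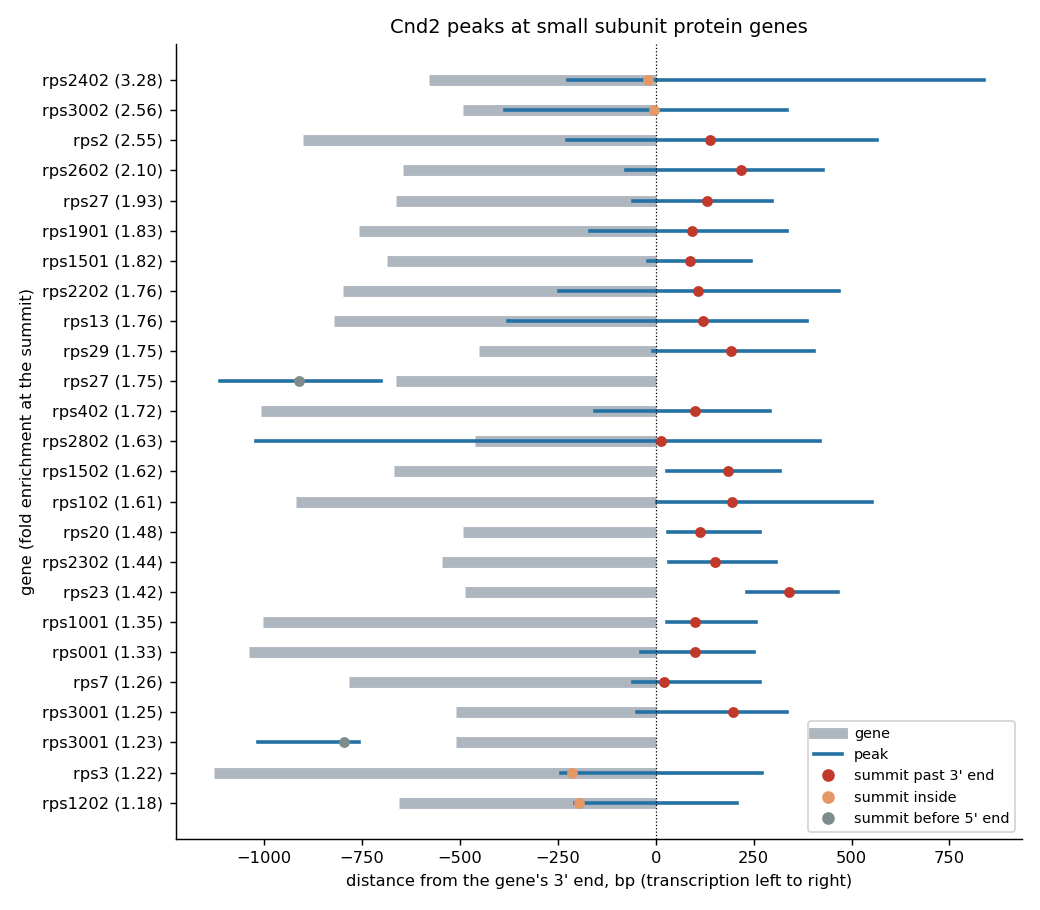
Each row is a gene and a peak near it, for the genes named in the text, aligned at the annotated 3′ end (x axis, distance in bp, transcription from left to right), with the fold of the peak in parentheses. Grey bars are genes, blue lines are the called peaks and points are summits: 4 summits lie inside the gene, 2 before its 5′ end and the others past the 3′ end.

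The 25 peaks made 26 pairs of gene and summit, because 1 peak lay near both rps29 and rps27. The genes rps27 and rps3001 had 2 summits each. In 24 of 26 pairs (92.3%, 74.9 to 99.1) the summit was nearer to the 3′ end than to the 5′ end, against 80.2% of the 843 pairs of all protein-coding genes. The summit lay past the 3′ end in 20 pairs (76.9%, 56.4 to 91.0), against 45.9% over all protein-coding genes. It lay inside the gene in 4 (15.4%, 4.36 to 34.9), against 39.6%. The shares over all protein-coding genes include longer genes, with a median length of 1773 bp. They were not matched for length, and a longer gene has more room for a summit inside it. Among the 20 pairs with a summit past the 3′ end the distance ran from 14 to 341 bp, with a median of 116.5 bp, and it was at most 200 bp in 18 of them (90.0%, 68.3 to 98.8). For all 387 such pairs of protein-coding genes the median was 175 bp, with 58.4% at most 200 bp. From the stop codon, the 24 summits nearer to the 3′ end lay a median of 263 bp downstream, and the lowest value, 101 bp before the stop codon, belonged to rps3.

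**Figure D2:**
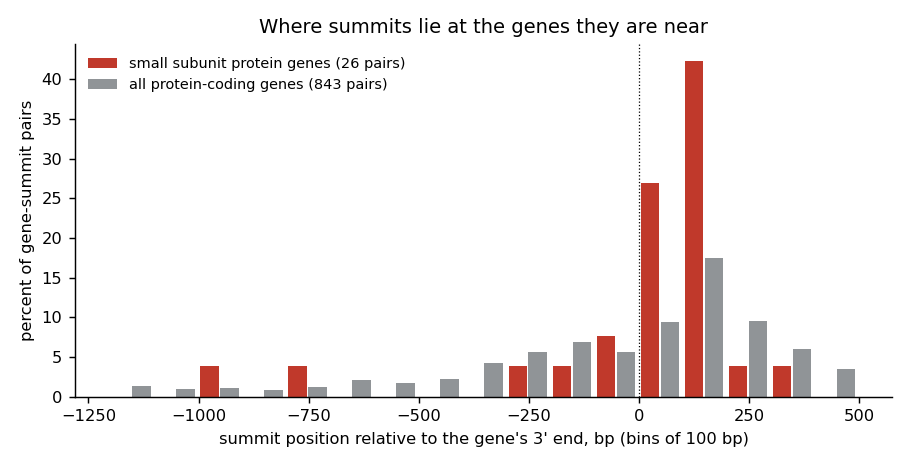
Share of gene and summit pairs (y axis, percent) by the position of the summit relative to the gene's 3′ end (x axis, bins of 100 bp) for the 26 pairs of small subunit genes (red) and the 843 pairs of all protein-coding genes (grey, of which 169 lie outside the plotted range). The bins from 0 to 200 bp past the 3′ end hold 18 of the 26 pairs.

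The strongest peak of the group was at rps2402, which encodes eS24, a protein of the subunit's body. The ChIP library held 1468 fragments at this summit over a local background of 447 fragments from the scaled input, a fold of 3.28 as the authors' peak caller gave it (chromosome II, 2181257 to 2182319, in the authors' build ASM294v2, as for all peaks below). It ranked 89 of 664 by fold. The summit was 21 bp before the 3′ end of the gene and 44 bp past its stop codon, and the peak reached 838 bp past the 3′ end. The convergent gene cnt5, for a centaurin, had its own 3′ end 116 bp from the summit.

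The next 3 peaks were at rps3002, rps2 and rps2602. At rps3002, which encodes eS30, the ChIP library held 927 fragments over a background of 361 from the input (2.56-fold; II, 2348624 to 2349344), with the summit 4 bp before the 3′ end. At rps2, the gene of uS5, which lies by the mRNA entry site and affects decoding accuracy in budding yeast, there were 1580 fragments in the ChIP over 620 from the input (2.55-fold; III, 2094569 to 2095361). That summit lay 139 bp past the 3′ end, in the gap to the convergent coatomer gene ret3. At rps2602, for eS26, which lines the mRNA exit channel, there were 909 fragments over 432 (2.10-fold; I, 2792412 to 2792914), with the summit 217 bp past the 3′ end. These 4 were the only ones of the 25 peaks above 2-fold (16.0%, 4.54 to 36.1), whereas 264 of all 664 peaks were (39.8%).

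Peaks near small subunit genes were of moderate height in the list, with a median of 1.63-fold (range 1.18 to 3.28) beside 1.72-fold for all 664 peaks (quartiles 1.36 and 2.47). Pileup had a median of 625 fragments, against 786 over all peaks, and the median width was 414 bp, against 523 bp. The local background at these summits, with a median of 374 scaled fragments from the input, was below that of all peaks, at 409. By chromosome, its median near these genes was 342 on I, 380 on II and 590 on III, against 366, 378 and 560 over all peaks. At 16 of the 25 summits, and at 371 of all 664, the background lay below the mean coverage of 429. With the background held at or above that mean, 21 of the 25 peaks kept a recomputed −log10 p no lower than the lowest deposited one. The q-value behind the caller's cutoff was not recomputed. By this limit 601 of all 664 peaks were kept, with a median fold of 1.63. The 21 kept near small subunit genes lay at 21 genes, with a median of 1.48. The 4 lost by this limit, which may be set too high, were those at rps1001 and rps7 and both at rps3001.

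**Figure D3:**
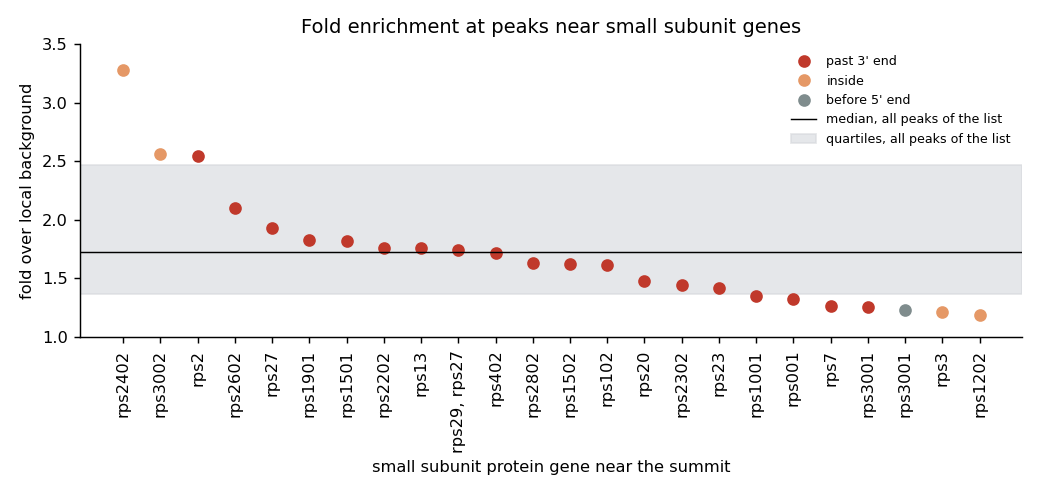
Fold enrichment at the summit over the local background (y axis) for peaks near the genes named in the text (x axis, named by the small subunit gene near it), coloured by the position of the summit. The line and the grey band give the median (1.72) and the quartiles (1.36 and 2.47) of all 664 peaks: 10 peaks lie at or above the median.

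Genes for proteins of the head of the subunit and of its body were both among those near a summit. Of the 23 head genes 10 were called (43.5%, 23.2 to 65.5), and of the 32 genes for proteins of the body and platform 14 were (43.8%, 26.4 to 62.3). Among the head proteins with a summit were uS19 and eS19. The gene rps1901, for eS19, a protein needed for 18S rRNA maturation, had 659 fragments in the ChIP over 360 from the input (1.83-fold; II, 3818868 to 3819371), 92 bp past its 3′ end.

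Further head genes with a summit past the 3′ end were rps29, rps2802, rps20 and rps1001. At rps29, which encodes the zinc-binding protein uS14, the ChIP held 592 fragments over 339 from the input (1.75-fold; II, 516872 to 517282), 193 bp past the end. For rps2802 (eS28) the values were 915 fragments over 560 (1.63-fold; III, 1826486 to 1827925), under a peak 1440 bp wide that covered the whole gene. Its summit was 14 bp past the 3′ end of rps2802 but also inside trs130, the convergent gene of a TRAPP complex subunit. For rps20 (uS10) there were 952 fragments over 642 (1.48-fold; III, 2097049 to 2097282), 113 bp past the end. For rps1001 (eS10) there were 431 over 320 (1.35-fold; I, 3019070 to 3019298), 99 bp past the end.

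Both head genes with a summit inside the coding region had little enrichment. At rps3, whose product uS3 lines the mRNA entry channel, there were 625 fragments in the ChIP over 513 from the input (1.22-fold; II, 4237940 to 4238453). The summit was 214 bp before the 3′ end, and the 3′ end of the convergent gene ptf2 was nearer, at 85 bp. At rps1202 (eS12) the values were 522 over 441 (1.18-fold; II, 498181 to 498594), with the summit 197 bp before the 3′ end and also inside the convergent phosphatase gene pmp1. These were the lowest folds of the group.

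Among the genes for the body, 4 had summits 101 to 132 bp past the 3′ end with folds from 1.72 to 1.93. At rps27, for the zinc-finger protein eS27, the ChIP held 726 fragments over 376 from the input (1.93-fold; II, 517927 to 518280), 132 bp past the end. At rps2202 (uS8) it held 575 over 326 (1.76-fold; I, 1511125 to 1511840), 109 bp past the end. At rps13 (uS15) it held 572 over 325.5 (1.76-fold; I, 2745485 to 2746249), at 120 bp. These 3 peaks each spanned the 3′ end. The peak at rps402 (eS4) did so too, with 643 over 374 (1.72-fold; II, 1650533 to 1650981) and its summit at 101 bp. A summit farther out, 194 bp past the end, was at rps102, for eS1 of the platform, with 552 over 342 (1.61-fold; I, 897493 to 898041). Weaker peaks were at rps001, for uS2, with 649 over 489 (1.33-fold; II, 2779904 to 2780194) and the summit 99 bp past the end, and at rps7, for eS7, with 443 over 350 (1.26-fold; I, 2241482 to 2241805) and the summit 21 bp past it.

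The 31 genes without a near summit were far from any, at a median of 7147 bp (810 to 47592 bp). Around the limit of 500 bp the farthest gene inside it was rps23 at 341 bp, and the nearest outside were rps1701 at 810 bp, rps1602 at 1043 bp, rps21 at 1481 bp, rps1402 at 1608 bp and rps1702 at 2470 bp. No gene lay between 341 and 810 bp. The median gene length was 677.5 bp with a near summit and 668 bp without. A coding region in 1 exon was found in 10 of 24 (41.7%, 22.1 to 63.4) and 15 of 31 (48.4%, 30.2 to 66.9). By chromosome the counts were 10 of 28 on I, 10 of 20 on II and 4 of 7 on III. All peaks numbered 254, 229 and 181 on these chromosomes, of 5579133, 4539804 and 2452883 bp. The share of all protein-coding genes called was not computed by chromosome, so these counts are a description only.

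The small subunit genes were also grouped by protein, to count how many copies of each had a near summit. The 55 genes fall into 31 proteins, of which 23 have 2 or 3 copies and 8 have 1. All copies had a near summit for 3 proteins (uS19, uS12 and eS30), 1 copy had one for 11, and none had one for 9. The first count fell to 2 with the background held as above and to 2 with −log10 q of at least 10. It was 1 when the called peak had to overlap the gene, and 0 for folds at or above the list's median. With the background held the second count stayed at 11, but eS30 entered it and eS10 left it. Of the 8 single-copy genes 7 were near a summit, against 17 of the 47 genes with a copy and 15.1% of all protein-coding genes. The exception was rps21. Among the 7, rps2 and rps20 are neighbours, as are rps29 and rps27, so they are not separate loci. How many families would be split if copies were called independently at 17 of 47 was not computed. The split is therefore a description only, and single-copy genes were not tested against the others.

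**Figure D4:**
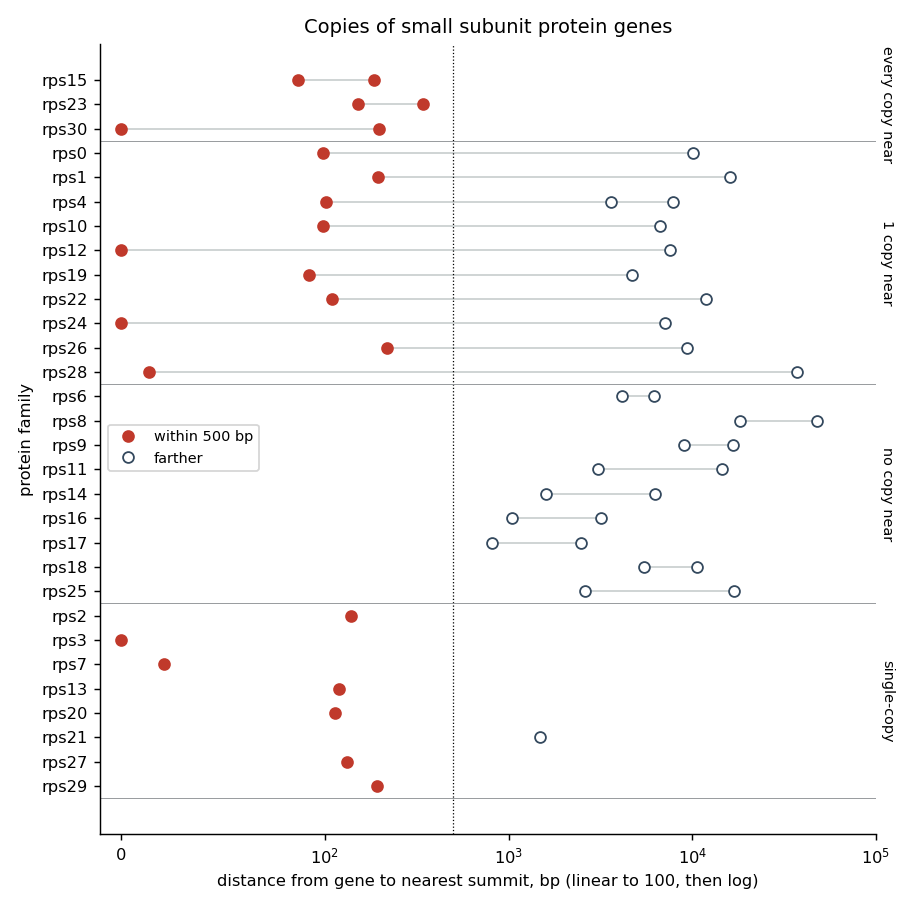
Distance from each gene to the nearest Cnd2 summit (x axis, bp, linear to 100 bp and logarithmic beyond) for the copies of small subunit proteins (rows), grouped by how many copies were near. Filled points are within 500 bp (dotted line) and open points are farther: in the families with 1 copy near, the other copies lie at 3604 bp or more.

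In the 3 families with every copy near, the folds of the copies were closest for uS12 and farthest apart for eS30. The uS19 genes rps1501 (875 fragments over 481; III, 798910 to 799172) and rps1502 (674 over 415; I, 3867992 to 3868281) had 1.82-fold at 87 bp and 1.62-fold at 185 bp past the 3′ end. In budding yeast uS19 is needed for the small subunit to leave the nucleus. The genes of uS12, a protein of the decoding centre, were rps2302 (553 over 383; II, 2897666 to 2897940) at 1.44-fold, 151 bp past the end, and rps23 (499 over 351; I, 2134860 to 2135092) at 1.42-fold, 341 bp past it. For eS30, rps3002 stood at 2.56-fold as given above. Its copy rps3001 had a 1.25-fold peak 198 bp past the 3′ end (448 over 357; I, 4890781 to 4891165) and a 1.23-fold peak 286 bp before the 5′ end (415 over 336; I, 4889812 to 4890070).

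In the 11 families with 1 copy near, copies near a summit included rps001, rps102, rps402, rps1001, rps1202, rps1901, rps2202, rps2402, rps2602 and rps2802. The copies without one included rps002, rps101, rps401, rps403, rps1002, rps1201, rps1902, rps2201, rps2401, rps2601 and rps2801. The widest contrast in distance was for eS28, with rps2802 at 14 bp and rps2801 at 37275 bp from a summit. The 9 families with no copy near were eS6 (rps601, rps602), eS8 (rps801, rps802), uS4 (rps901, rps902), uS17 (rps1101, rps1102), uS11 (rps1401, rps1402), uS9 (rps1601, rps1602), eS17 (rps1701, rps1702), uS13 (rps1801, rps1802) and eS25 (rps2501, rps2502). These include eS6, the protein phosphorylated downstream of TOR signalling, and uS9, whose tail reaches the tRNA in the P site.

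Near-identical copies can share reads, so the copies were compared by sequence. The coding sequences of 2 copies were 77.0 to 95.1% identical (median 88.1% over 25 pairs), and their longest identical run was 14 to 150 bases, in no pair as long as the 208 bp fragments. The run reached 50 bases in 6 of the 25 pairs and 100 bases in 2. Read length is not given in the sources used here, so reads shorter than these runs could be shared between copies. In the 300 bp past the 3′ end, where most summits lay, the longest shared run was 7 to 11 bases. Shown first are the last 30 coding bases of 3 families, with the stop codon in capitals, because they show how alike the copies are at the end of the coding region. They were read from the RefSeq reference ASM294v3, with strand and coordinates in that build.
rps1501 (III:798714-798743, plus): catagttctcgtttcattcctcttaagTAA
rps1502 (I:3868496-3868525, minus): cacagctctcgtttcattcctttgaagTAG
rps2302 (II:2897502-2897531, plus): catgaaaagaaggaaaaacctagagctTAA
rps23 (I:2135357-2135386, minus): catgagaagaaggaaaagcctagagctTAA
rps2402 (II:2181387-2181416, plus): gccaagagaaaatctaagcaacaagacTAG
rps2401 (I:3599547-3599576, plus): gccaagcgcaagtctaagcaacaagacTAG

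The 30 bases around the point 116 bp past the 3′ end of the same genes, close to the median of the downstream summits, are shown for contrast, since the copies differ there. They are given all in lower case, on the strand of the gene and in the same build.
rps1501 (III:799030-799059, plus): aatctgcaatttgacagctacgattagatt
rps1502 (I:3868180-3868209, minus): ttaaaataccgtgacaggcaattaaacttt
rps2302 (II:2897734-2897763, plus): ggaagttgaatgttaagaattagcataata
rps23 (I:2135195-2135224, minus): aacttacatatacttgggacaaatacctct
rps2402 (II:2181582-2181611, plus): cgaaatatcttaaaatttattctgtgtgct
rps2401 (I:3599884-3599913, plus): tgataaaggaatgggctaatattgactcag

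Many of the genes near a summit faced a convergent neighbour, that is a next gene on the other strand whose 3′ end points back at theirs. This was so for 18 of the 24 genes with a near summit (75.0%, 53.3 to 90.2) and for 11 of the 31 without (35.5%, 19.2 to 54.6), while 54.8% of all protein-coding genes have a convergent gene downstream. Counted the other way, 18 of 29 small subunit genes with a convergent neighbour had a summit (62.1%, 42.3 to 79.3), and 6 of 26 with a tandem one (23.1%, 8.97 to 43.6). Over all protein-coding genes these shares were 19.3% and 10.2%. In the 11 families that were split, 9 of the 11 copies near a summit and 4 of the 12 other copies had a convergent neighbour. Differences between these shares were not tested.

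A peak at a convergent pair could belong to either gene, and for most of the 25 peaks the annotation alone did not settle it. Another protein-coding gene held the summit or lay nearer to it than the small subunit gene at 15 peaks (60.0%, 38.7 to 78.9), both held it at 2, and the small subunit gene was the nearer at 8. Judged by the nearest 3′ end instead, it was that of a small subunit gene at 18 of 25 peaks (72.0%, 50.6 to 87.9). The summit fell inside another annotated protein-coding gene at 12 of 25 peaks (48.0%, 27.8 to 68.7). Summits inside the small subunit gene alone are left out of this count. Of all 664 peaks 44.4% had the summit inside any protein-coding gene, which is a wider measure. A 3′ end of another protein-coding gene within 500 bp was present at 16 peaks, with a median of 1.62-fold, and absent at 9, with a median of 1.75-fold.

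The 7 peaks with a nearer 3′ end of another gene were those at rps102, rps1901, rps2302, rps001, rps3, rps2 and the one upstream of rps3001. At rps2302 the 3′ end of SPBP4H10.14C was 8 bp from the summit, against 151 bp for rps2302. At rps001 the neighbour was itself a ribosomal protein gene, rpl2701 for a large subunit protein, whose 3′ end was 12 bp away against 99 bp. At rps102 the convergent SPAC22H12.03, annotated as a hydrolase, ended 49 bp from the summit, against 194 bp for rps102. At rps1901 and rps2 the distances were close: 90 bp for SPBC21C3.14C against 92 bp for rps1901, and 127 bp for ret3 against 139 bp for rps2.

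In further cases the convergent gene reached past the summit and its 3′ end, within 500 bp, was the more distant: mug165 at 123 bp against 109 bp for rps2202, arp9 at 285 bp against 185 bp for rps1502, fcp1 at 287 bp against 198 bp for rps3001, and abz2 at 242 bp against 4 bp for rps3002. The gene fcp1 encodes a phosphatase of the RNA polymerase II tail, and arp9 a subunit of the SWI/SNF and RSC remodellers. Past rps7 the 3′ end of SPAC18G6.13 was 370 bp away, against 21 bp for rps7 itself.

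At 9 peaks no other protein-coding 3′ end lay within 500 bp, so that the small subunit gene had the only one in reach. These were the peaks at rps23, rps13, rps2602, rps1001, rps1202, rps1501, rps2802, past rps29 and past rps27. The rps2602 and rps23 summits did lie inside long convergent genes, SPAC1805.10 and ice2, at 2310 and 1026 bp from their 3′ ends. Past rps1001 and rps1501 the 5′ ends of dpm1 and fta4 were 429 and 402 bp away. Of these rps13, rps1001, rps1501, rps27 and rps29 are followed by a gene on the same strand. Among the 6 genes followed by a tandem neighbour every summit past the gene lay between the stop codon and the next coding region, with folds of 1.35 to 1.93. The exact interval of this share starts at 54.1%. For convergent genes the count was 11 of 18 (61.1%, 35.7 to 82.7). The gaps differ in width: 471 to 1099 bp for the tandem genes and −35 to 837 bp for the convergent ones. The difference was not tested.

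Both summits upstream of a small subunit gene were near the 3′ end of the gene before it. The 1.75-fold summit 249 bp before rps27 lay 193 bp past the 3′ end of rps29, so that 2 small subunit genes in a row each had a peak behind them. The 1.23-fold summit before rps3001 lay 119 bp past the 3′ end of bgs3, which encodes a glucan synthase of the cell wall. At 2 peaks a 5′ end was the nearest end of any protein-coding gene: the summit past rps27 was 26 bp before the ATPase gene rlp1, and that past rps402 was 44 bp before dpm2.

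The genes rps2 and rps20 are divergent neighbours, and a summit lay past the 3′ end of each while none lay between their starts. The rps2 summit was nearer to the 3′ end of ret3, at 127 bp, than to that of rps2, at 139 bp. The rps2 summit was 2.55-fold and the rps20 summit 1.48-fold, with similar backgrounds of 620 and 642 fragments from the input. The 3′ end of rpt3, a proteasome subunit gene, was 159 bp from the rps20 summit.

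No gene for a tRNA, 5S rRNA, snoRNA or snRNA lay within 500 bp of any of the 25 summits, whereas 166 of all 664 peaks (25.0%) had one there. A count of 0 in 25 allows a share of up to 12%. Non-coding RNA genes held the summit at 6 of the 25 peaks (24.0%, 9.36 to 45.1), against 31.9% of all peaks. These were SPNCRNA.2952 past rps23, SPNCRNA.3229 past rps13, SPNCRNA.3724 past rps1502, SPNCRNA.1034 before rps3001, SPNCRNA.4751 past rps29 and SPNCRNA.4752 past rps27. Of these SPNCRNA.3229, SPNCRNA.1034, SPNCRNA.4751 and SPNCRNA.4752 run on the strand opposite to the nearby small subunit gene.

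The HomolD box was found in the promoters of small subunit genes whether or not Cnd2 was near. The letters CAGTCACA, or TGTGACTG on the other strand, occurred in the 250 bases before the annotated start of 34 of the 55 genes (61.8%, 47.7 to 74.6), against 2.62% of all protein-coding genes. The box lay 35 to 77 bases before the start, with a median of 44. It was present in 15 of the 24 genes with a near summit (62.5%, 40.6 to 81.2) and in 19 of the 31 without (61.3%, 42.2 to 78.2). The 9-letter core CCCTACCCT of the HomolE element, on either strand, was in 13 of 24 (54.2%, 32.8 to 74.4) and 10 of 31 (32.3%, 16.7 to 51.4), against 1.49% of all protein-coding genes. The motifs do not overlap in their letters, and a match is a description and not a site. Windows of 30 bases with the box in capitals are shown for rps2402, rps2 and rps1901, which had a summit, and then for rps2401 and rps901, which had none, because the same letters occur in both (RefSeq ASM294v3, on the strand of the gene). The rps2401 box is in the reverse orientation.
rps2402 (II:2180840-2180869, plus): agtccaaaaagCAGTCACAaacaacatcaa
rps2 (III:2096064-2096093, minus): atgagcccaaaCAGTCACActcattataga
rps1901 (II:3818221-3818250, plus): gggtagaggaaCAGTCACAtttgtttcgaa
rps2401 (I:3599025-3599054, plus): gtaccacatctTGTGACTGccttctttggg
rps901 (I:476153-476182, minus): atattggaagaCAGTCACAagccacaacac

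Other genes of cytosolic protein synthesis were also found near summits. Of 83 large subunit protein genes (rpl and rpp series) 37 were called (44.6%, 33.7 to 55.9), with a median of 1.62-fold and 37 of 38 pairs nearer to the 3′ end. The highest folds there were at rpl2302, 4.83-fold with the summit 473 bp before its 5′ end, and at rpl801, 4.30-fold with the summit 221 bp past its 3′ end. Of 34 elongation, initiation and termination factor genes 13 were called (38.2%, 22.2 to 56.4), among them tef103 and tef101 for EF-1 alpha at 6.64-fold and 3.93-fold, 149 and 108 bp past the 3′ end. Genes for the small subunit of the mitochondrial ribosome, which are nuclear but serve another ribosome, were called in 1 of 22 cases (4.55%, 0.115 to 22.8), and that gene was mrps8, at 2.86-fold. The lists are not fully separate, as 1 summit can call genes in 2 of them: the 1.33-fold summit past rps001 also called rpl2701. All shares stand beside the 15.1% of all protein-coding genes, and differences between the lists were not tested.

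**Figure D5:**
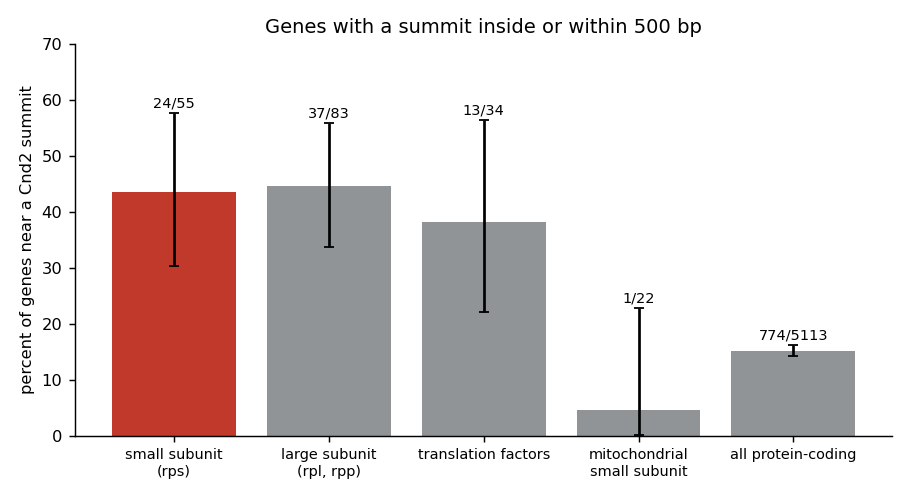
Percent of genes with a Cnd2 summit inside or within 500 bp (y axis) for small subunit protein genes (red), 3 other groups of protein synthesis genes and all protein-coding genes (grey), with exact 95% intervals and the counts above each bar. Small subunit genes stand at 24 of 55 and all protein-coding genes at 774 of 5113.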

How the data were processed

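Condensin (Cnd2-HA) ChIP and input chromatin of mitotic fission yeast were sequenced as 1 library each. The authors used BWA 0.7.12 and MACS2 2.1.0 with build ASM294v2, per the submitters' processing notes. Per the file headers, MACS 2.1.0.20150731 called peaks of the ChIP on paired-end fragments against the input, with a q cutoff of 0.05, at most 1 duplicate fragment and background windows of 1000 and 10000 bp. The deposited list gives, for each peak, the position, the pileup as coverage signal in fragments, the fold as a ratio to the local background, and −log10 p and −log10 q, which are the authors' caller's own values. The input's label repeats the immunoprecipitation text of the ChIP, and it was taken as input by its title. The labels do not say whether both came from 1 culture.

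From the list, the local background was computed as (pileup + 1) / fold − 1. Summits were joined to the RefSeq annotation of ASM294v3 (distances in bp, limit 500 bp) with Python 3.11.15, pandas 2.3.3 and scipy 1.17.1. The builds differ by name: 117 of 171 tRNA genes, known condensin sites, had a summit within 100 bp as read, and 1 to 9 had one when positions were shifted by 500 to 5000 bp. Of 668 peaks, 4 outside the 3 chromosomes were left out. Peak coordinates are the authors' in ASM294v2, and sequences were read by the annotation's coordinates in ASM294v3. The joining step was tested on simulated peaks.

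Shares carry exact Clopper-Pearson 95% intervals, which cover counting error only, and a count of 0 was taken to allow 3 counts. With 25933013 ChIP and 54272630 input fragments kept, precision is limited by the lack of replicates. The values of 1 family are not reported here, though it is part of all counts. Otherwise every gene with a near summit was named with its fold and distance, every other by symbol, the 5 nearest past the limit with their distance, and protein-coding neighbours within 500 bp by name; non-coding neighbours were named only where they hold the summit. Members and lists were chosen with earlier results of these data known.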

Additional observations from a re-analysis of the deposited data

How the results depend on the processing

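A count was taken as moved when it changed by more than 1.5-fold, and a median fold when it fell outside 1.42 to 1.76. A share was taken as moved when it fell outside the exact interval of the main share. Reversal was not assessed. Of 46 alternative values, 36 stayed within these limits and 10 moved. Some of these outcomes were fixed by construction. Leaving out peaks near tRNA, 5S rRNA or snoRNA genes could change nothing, as 0 of the 25 peaks have one. With the summit required inside the gene there were 4 genes, 100% of pairs nearer the 3′ end, a median of 1.89-fold, 3 families with 1 copy near and 0% with another gene nearer, the last being forced by the requirement. With the called interval overlapping the gene, 100% of 18 pairs were nearer the 3′ end, at 18 genes. With a fold at or above the list's median there were 10 genes and 6 such families, and the median of 1.88-fold is higher because peaks were selected by fold. Read as pileup, the median was 625 fragments, a change of unit only. Limits of 250 and 1000 bp gave 23 and 25 genes, and −log10 q of at least 10 gave 19. A background held at or above the mean coverage of 429, which may be set too high, gave 21. With coding spans in place of annotated spans, another gene was nearer at 48.0% of peaks, against 60.0%. The cause of the other changes was not tested. No paired analysis was possible because there was 1 ChIP and 1 input library, and for the same reason no library could be left out. Enrichment that an untagged strain would also give was not tested.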
